A study of Mus musculus with 5 samples.

Results

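The genes considered were the immunoglobulin constant regions Ighm, Ighd, Ighg1, Ighg2b, Ighg2c, Ighg3, Igha, Igkc and Iglc2 and the J chain gene Jchain, 10 genes taken by name. Jchain (ENSMUSG00000067149) was the 1 of the 10 that could be analysed, among 27998 genes counted. The other 9 were not analysed here, so that no isotype mix, kappa to lambda ratio or class-switched share is given. RNA was counted in single live CD45+ cells of 3 mice, each sampled at its tumour, the lymph node draining it and a lymph node that does not. Mouse 1 had received nivolumab_mIgG1_D265A, a PD-1 antibody on a mouse IgG1 backbone with the D265A exchange, mouse 2 nivolumab_mIgG1, and mouse 3 MOPC21, the isotype control. No source used here names the strain, age or tumour line. The 9 samples carried hashtag antibodies and were run as 1 pool, and no source used here ties a hashtag number to a mouse or a site. They are called populations 1 to 9 by hashtag number, neither sites nor antibodies were compared, and no population is a replicate of another.

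The J chain is a small polypeptide that joins immunoglobulin monomers into IgM pentamers and IgA dimers and lets these be carried across epithelia by the polymeric immunoglobulin receptor, Pigr. It is made by antibody-secreting plasma cells, where its RNA is abundant. In the lymph node, plasma cells arise from activated B cells, in part from germinal centres, where B cells divide, mutate their antibody genes and are selected. Resting follicular B cells carry little J chain RNA.

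Jchain lies on chromosome 5 at 88519809 to 88527891 on the minus strand of GRCm38 and has 4 exons and a transcript of 1393 bases in GENCODE M21. The libraries were made from the 5′ end of transcripts, so the bases before the start are shown, from RefSeq on GRCm38.p6, chr5:88527898-88528147, minus strand, written 5′ to 3′. Capitals mark the 1 match to the E-box letters CANCTG, searched on both strands, 109 bases before the start.

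Jchain upstream region: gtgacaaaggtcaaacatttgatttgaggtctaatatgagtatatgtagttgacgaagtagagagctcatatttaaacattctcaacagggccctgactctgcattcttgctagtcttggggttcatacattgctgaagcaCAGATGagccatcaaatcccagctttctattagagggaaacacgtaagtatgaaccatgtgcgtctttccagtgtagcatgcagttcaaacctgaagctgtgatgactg

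An E-box match occurred in 44.8% of 32817 upstream regions of the same length. The octamer ATGCAAAT, the PU.1 core with the letters GAGGAA, the TATA box with the letters TATAAA and the MEF2 motif had no match in this window on either strand, and they occurred in 1.60%, 23.3%, 12.4% and 2.92% of the regions.

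Jchain RNA was concentrated in very few cells. Of 21531 cells that passed the filters, 210 had a Jchain unique molecular identifier (UMI, one counted RNA molecule), and together they held 4117 Jchain UMIs. Plasma cells (5 cells) held 51.4% of these UMIs and the germinal centre B class (344 cells) held 45.3%. The other 6470 B cells held 0.874%. B cells were those with at least 4 UMIs over Cd79a, Cd79b and Ms4a1 (6818 cells), and the germinal centre class had in addition at least 3 UMIs over 10 markers, among them Mef2b, S1pr2, Rgs13, Gcsam, Nuggc, Mybl1, Basp1, Fas and Bcl6. Plasma cells had a UMI of at least 4 of Sdc1, Tnfrsf17, Derl3, Mzb1, Xbp1 and Prdm1. Jchain was used by none of these rules.

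The level of Jchain, as UMIs scaled to a total of 1000000 gene UMIs (CPM) summed over a class, was 15772 CPM in plasma cells (95% interval 15108 to 16459). It was 409 CPM in the germinal centre class (390 to 428) and 1.68 CPM in other B cells (1.17 to 2.32). T cells without any UMI of the 3 B markers had 0.793 CPM (0.531 to 1.14) from 29 UMIs in 7164 cells. Macrophages or monocytes had 0.235 CPM (0.0944 to 0.484) and conventional or migratory dendritic cells 0.338 CPM from 1 UMI. No Jchain UMI was found in 537 NK cells, 111 neutrophils or 22 plasmacytoid dendritic cells, where 3 UMIs would have given 0.869, 1.79 and 16.5 CPM. Cells with 1 to 3 B marker UMIs had 2.23 CPM (1.66 to 2.93), with 29 of their 51 UMIs in 1 cell. The 1211 cells that met no rule, with a median depth of 1677 UMIs, had 3.37 CPM (1.46 to 6.65) from 8 UMIs. Plasma cells were thus highest and the germinal centre B class next. Other B cells were not above the cells of no class, and the intervals of both overlap. The upper limits of the classes with no UMI were 1.07 CPM for NK cells, 2.20 for neutrophils and 20.2 for plasmacytoid dendritic cells. All 3 lie below the germinal centre class. That of NK cells also lies below the intervals of other B cells, cells with 1 to 3 B marker UMIs and cells of no class. At their depth these classes could not be placed further. The interval of dendritic cells overlaps those of macrophages, T cells and other B cells. Those of macrophages, T cells and other B cells lie next to each other without overlap, but without 1 T cell, described further on, T cells (0.437 CPM, interval up to 0.710) overlap macrophages. All intervals are exact and cover counting error only, neither cell-to-cell nor mouse-to-mouse spread.

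**Figure D1:**
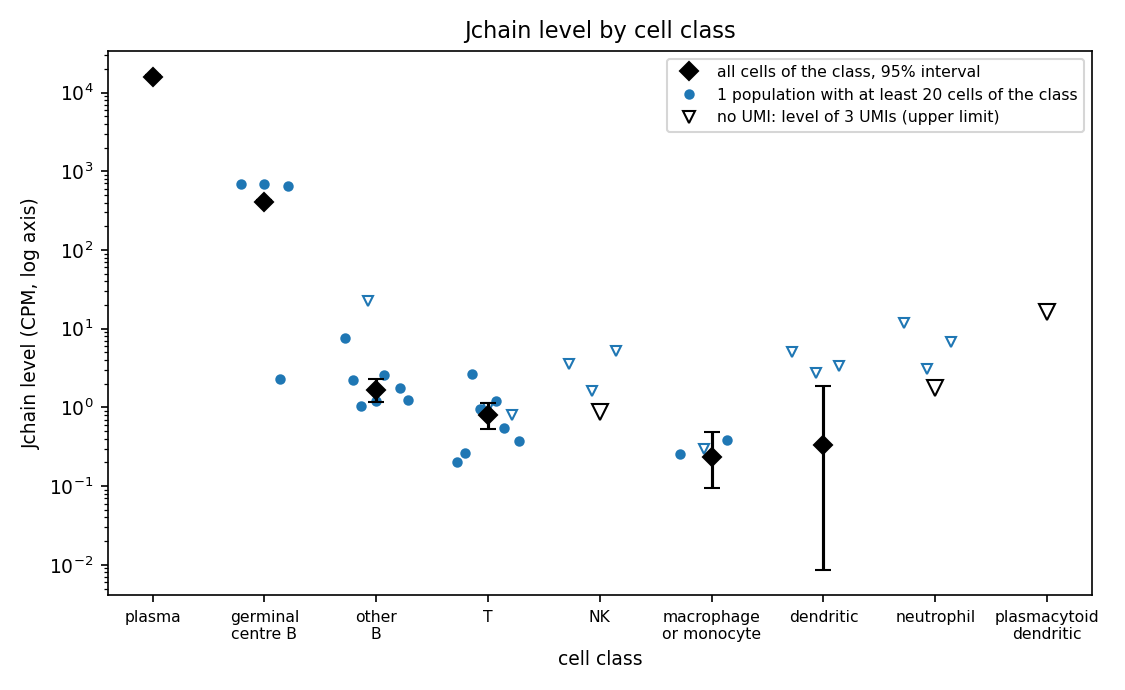
Jchain level in CPM (log axis) by cell class. Diamonds are all cells of a class with 95% Poisson intervals, dots are single populations with at least 20 cells of the class, and open triangles stand for no UMI, drawn at the level of 3 UMIs. Plasma cells (15772 CPM) and the germinal centre class (409 CPM) stand above the remaining classes, and 1 population of the germinal centre class, number 7, sits at 2.33 CPM.

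The plasma class came down to a pair of cells. A cell of population 5 had 1091 Jchain UMIs among 18232 gene UMIs, 5.98% of its RNA count. A cell of population 2 had 941 among 18058, or 5.21%. Both carried Sdc1, the plasma cell surface proteoglycan CD138, with 9 and 8 UMIs, and the secretory transcription factor gene Xbp1 with 55 and 31. They differed in other genes. The population 5 cell had 21 UMIs of the proliferation marker Mki67 and 380 of Slpi, a secreted protease inhibitor, and the population 2 cell had 1 of Mki67 and 4314 of Slpi.

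The remaining 3 cells of the plasma class had far less Jchain. One of population 5 had 81 Jchain UMIs among 58815, no Sdc1 UMI and 90 germinal centre marker UMIs. Another of population 5 had 4 among 37036, with 107 B marker UMIs and 1 of Sdc1. The cell of population 8 was shallow (2081 UMIs) and had none. Plasma cells over other B cells gave a ratio of 9409 (6774 to 13471), and rested on populations 5 and 2: it was 25756 without population 5 and 6452 without population 2. With only the 2 cells that had at least 5 Sdc1 UMIs it was 33403. These cells were described singly after their values had been seen.

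Jchain was far higher in the germinal centre class than in other B cells, in each population where both classes had at least 20 cells, namely populations 2, 5 and 8. In population 2 the germinal centre class had 371 Jchain UMIs in 55 cells, or 684 CPM, and other B cells had 8 UMIs in 1107 cells, or 2.20 CPM. In population 5 the values were 800 UMIs in 90 cells, 691 CPM, against 6 UMIs in 1424 cells, 1.21 CPM. In population 8 they were 663 UMIs in 66 cells, 657 CPM, against 8 UMIs in 1319 cells, 1.79 CPM. The 3 germinal centre levels lie close together and none comes near its population's other B cells. The ratios were 310 (156 to 724), 569 (260 to 1555) and 367 (185 to 854), and their intervals overlap. Over all populations the ratio was 244 (175 to 349).

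The germinal centre label held in some populations and not in others. In populations 2, 5 and 8 the 7 markers other than Basp1, Fas and Bcl6 gave 57.2%, 54.1% and 53.0% of the class's marker UMIs. In populations 1, 4 and 7 these gave 4.52%, 2.22% and 5.79%, and Basp1, a membrane-bound growth cone protein, gave 85.8%, 75.6% and 81.0%. Of the cells in the class there, 16 of 16, 14 of 16 and 60 of 61 also met the macrophage or monocyte rule. The cells selected in populations 1, 4 and 7 are therefore called by the rule and not as germinal centre B cells. They had 0, 0 and 3 Jchain UMIs. Populations 3, 6 and 9 had 8, 11 and 17 cells in the class with 0, 10 and 3 Jchain UMIs, too few to describe further. The 7 markers gave 23.3%, 38.2% and 7.46% of the marker UMIs there, and in population 9 Bcl6 gave 47 of 67. The label was thus not borne out in population 9 either, where 15 of the cells met no other type's rule.

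In all, 129 of the 344 cells also met the rule of another type (T, NK, macrophage or monocyte, or neutrophil). Without them 215 cells remained at 725 CPM, and the ratio to other B cells, cleared the same way, was 428 (303 to 623). Populations 2, 5 and 8 were then at 797, 723 and 758 CPM. The level in population 2 was 1.10 times that in population 5 (0.971 to 1.25) and 1.05 times that in population 8 (0.923 to 1.20), and population 5 was at 0.953 of population 8 (0.857 to 1.06). Each of these intervals includes 1. The class is a range cut from a sum of markers: 88 of its cells sat at the minimum of 3 UMIs, and 277 other B cells sat just below it at 2.

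The share of cells with a Jchain UMI followed the levels. It was 36.3% of the germinal centre class (125 of 344 cells, Clopper-Pearson interval 31.2% to 41.7%) and 54.4% (47.5% to 61.2%) without cells meeting another rule. It was 0.495% of other B cells (32 of 6470) and 0.237% of T cells (17 of 7164), taken as the background. Cells that met no rule gave 0.578% (7 of 1211), with an interval of 0.233% to 1.19% that holds the share of other B cells. Median depth was 10204 UMIs in the germinal centre class, 3049 in other B cells and 4500.5 in T cells. With each cell thinned to 1500 UMIs, which left out 3, 272 and 140 shallower cells, the expected shares were 25.5%, 0.226% and 0.0824%.

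Other B cells (1.17 to 2.32 CPM) could not be told apart from the cells that met no rule (1.46 to 6.65 CPM). That class is of unknown type and had only 8 Jchain UMIs, so the overlap does not show that other B cells were at background. The interval of other B cells lay above those of T cells (0.531 to 1.14 CPM) and macrophages or monocytes (0.0944 to 0.484 CPM), and overlapped that of dendritic cells. Among other B cells 28 had 1 Jchain UMI and 4 had 2, and none had more. Their level was 2.12 times that of T cells (1.26 to 3.58), and the T cell level fell to 0.437 CPM when 1 cell was left out. That cell, in population 3, had 13 Jchain UMIs among 3898 with 4 UMIs of Cd3d, Cd3e and Cd3g and none of the B markers. No other T cell had more than 1 UMI.

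One further cell outside the B classes stood out. It belonged to population 8 and had 29 Jchain UMIs among 8262, that is 3510 CPM. It carried 11 UMIs of Siglech, 53 of Ly6d and 63 of Bst2, all known from plasmacytoid dendritic cells, and 1 B marker UMI. Of 32 cells that met the plasmacytoid dendritic rule with at most 3 B marker UMIs it was the 1 with Jchain (3.13%, 0.0791% to 16.2%). A cell below the B rule in population 8, with 3 Jchain UMIs among 1426, had 8 germinal centre marker UMIs and 3 B marker UMIs.

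Within B cells the Jchain level was ordered by the number of germinal centre marker UMIs. Cells meeting another type's rule were left out of this comparison. Cells with none of the 10 markers had 1.63 CPM (22 of 4723 cells with a UMI), and cells with 1 marker UMI had 2.37 CPM. The 237 cells with 2 had no Jchain UMI, which allows up to 3.28 CPM. At 3 to 4 marker UMIs the level was 8.91 CPM (3 of 72 cells), and at 5 to 9 it was 82.8 CPM (7 of 26 cells). At 10 to 19 it was 622 CPM (22 of 28 cells), and at 20 to 39 it was 829 CPM (758 to 904, 45 of 48 cells). From 40 on it was 1071 CPM (1009 to 1135, 40 of 41 cells). The level thus rose mostly from the bin of 3 to 4 to that of 10 to 19 marker UMIs, with smaller steps after it.

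Depth moved with the marker count: median depth was 2964 UMIs in cells with no marker UMI, 7398.5 at 10 to 19 and 22189 from 40 on. Its part in the order of the levels was not tested, and CPM divides by depth. After thinning, the shares were 0.197% with no marker UMI, 16.3% at 5 to 9, 51.0% at 10 to 19, 67.5% at 20 to 39 and 73.7% from 40 on. In populations 2, 5 and 8 alone, cells at 5 to 9 marker UMIs had 162 CPM, no Jchain UMI in 5 cells (up to 38.5 CPM) and 68.9 CPM. Cells at 10 to 19 marker UMIs had 299.6, 725 and 617 CPM, cells at 20 to 39 had 897, 922 and 621 CPM, and cells with 40 or more had 1316, 866 and 1174 CPM. The level in population 5 did not go up over the last of these steps, and that in population 8 was flat from 10 to 39.

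**Figure D2:**
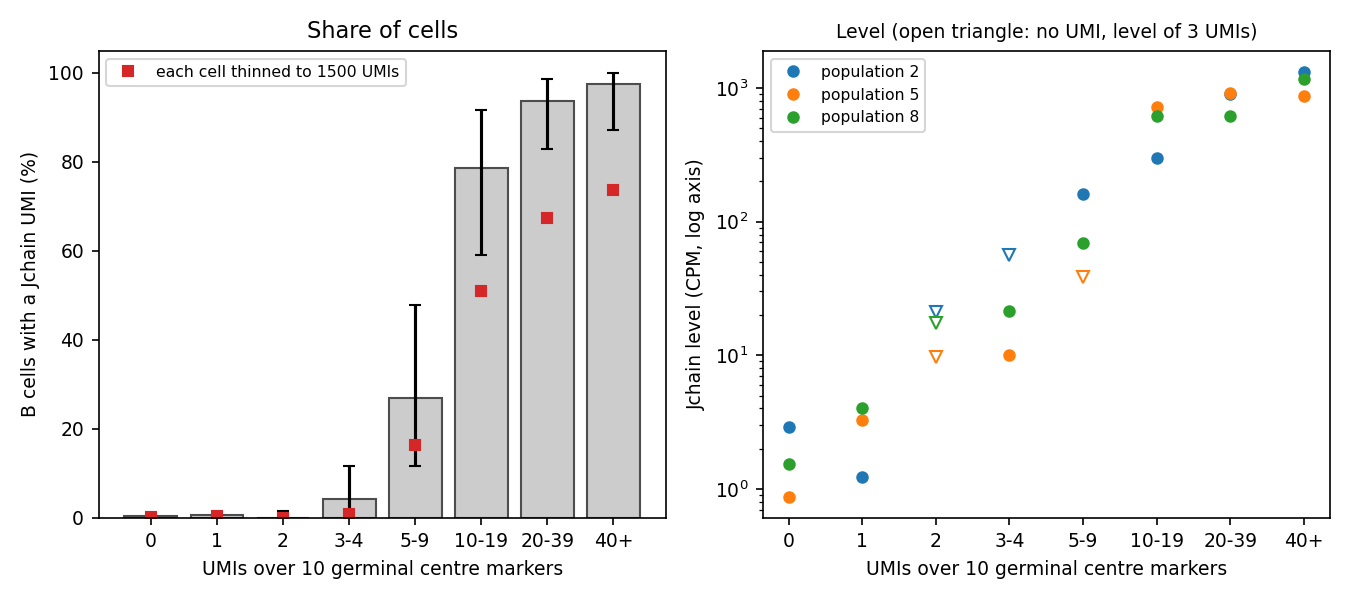
Left, the percentage of B cells with a Jchain UMI by UMIs over the 10 germinal centre markers, as bars with 95% Clopper-Pearson intervals, and as red squares the share expected when each cell is thinned to 1500 UMIs. Right, the Jchain level (CPM, log axis) in populations 2, 5 and 8, with open triangles at the level of 3 UMIs where none was found. The share goes from 0.466% in cells with no marker UMI to 97.6% in cells with 40 or more, and the 3 populations part at 5 to 9 marker UMIs, where population 5 has no Jchain UMI.

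With the 7 more specific markers alone, the order was the same, in a comparison chosen after the Basp1 share had been seen. Cells with none of the 7 had 1.82 CPM, cells with 1 or 2 UMIs 8.39 CPM, and cells with 3 or 4 UMIs 184 CPM (9 of 21 cells). The rise thus lay at lower marker counts than with all 10 markers. Cells with 5 to 9 had 510 CPM (23 of 29), cells with 10 to 19 had 918 CPM (32 of 32) and cells with 20 or more had 1141 CPM (49 of 50).

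Jchain also varied between single cells that were rich in the markers. Among 89 cells with at least 20 marker UMIs and no other type's markers, Jchain ranged from 0 to 69 UMIs with a median of 14, with quartiles of 6 and 24. In population 2 the lowest, median and highest of 18 cells were 0, 16.5 and 58 UMIs. In population 5 they were 0, 11 and 56 in 45 cells, and in population 8 they were 0, 20 and 69 in 25 cells. The ranges overlap almost fully. No single cell decided a level: the cell with most Jchain held 17.1%, 8.26% and 11.3% of these populations' UMIs, and without it the levels were 1116, 854 and 950 CPM in place of 1175, 889 and 1001 CPM. By counts alone population 2 was 1.32 times population 5 (1.16 to 1.51) and 1.17 times population 8 (1.02 to 1.34), and population 5 was at 0.888 of population 8 (0.795 to 0.993). These intervals leave out 1 but do not cover the spread between cells, which is many times wider.

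**Figure D3:**
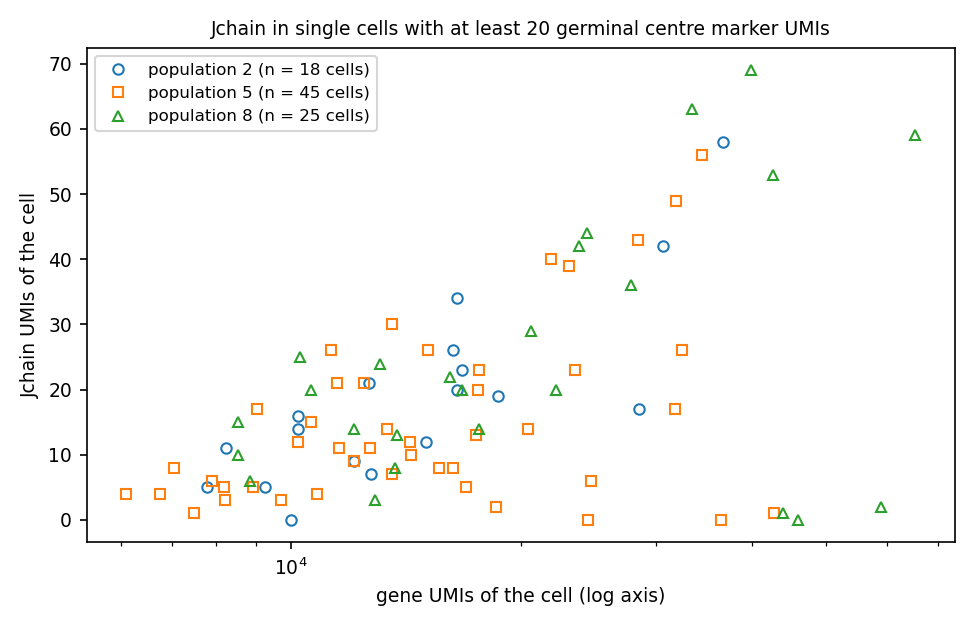
Jchain UMIs of each cell (vertical) against its gene UMIs (horizontal, log axis) for cells with at least 20 germinal centre marker UMIs in populations 2, 5 and 8 (18, 45 and 25 of the 89 such cells). Jchain reaches 69 UMIs, and a few deep cells lie at or near 0.

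Of the 89 cells, 4 had no Jchain UMI. They had 10019, 24423, 36424 and 45972 gene UMIs, against a median of 14348 in the 85 cells with Jchain. Their UMIs over the 7 specific markers were 20, 4, 9 and 1, against a median of 22 (range 4 to 80) in the cells with Jchain. The cell of 45972 UMIs, in population 8, had 204 B marker UMIs and reached the limit of 20 mainly through Basp1 (8 UMIs) and Fas (10 UMIs), a death receptor. The 1 cell with both no Jchain and a typical specific marker count was the one in population 2 with 10019 UMIs. These cells were looked at after their values had been seen.

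Cycling cells did not stand apart in Jchain. Among cells with at least 10 marker UMIs, 73 had at least 3 UMIs over the mitotic genes Mki67, Top2a, Cdk1, Birc5 and Ccnb1 and had 921 CPM of Jchain, and the other 44 had 1012 CPM. The ratio was 0.909 (0.812 to 1.02). In populations 2, 5 and 8 it was 1.27 (0.980 to 1.65), 0.864 (0.726 to 1.03) and 0.808 (0.662 to 0.992), so that the direction differed and only the last interval left out 1. Median depth was 16740 UMIs in cycling and 8222.5 in the other cells. The comparison and its limit of 10 marker UMIs were chosen after the levels had been seen.

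Against all genes Jchain was among the furthest apart between the germinal centre class and other B cells. Of 10808 genes with at least 50 UMIs in both classes together, 25.3% differed at least 2-fold with an interval that left out 1, 16.0% (1731 genes) higher and 9.29% (1004 genes) lower in the germinal centre class. Without cells meeting another type's rule the split was 1235 higher and 1275 lower of 10265. Jchain had rank 4 by ratio in both cases. The genes above it over all cells included H1fx, a linker histone, and Gcsam, which the rule used. Within populations 2, 5 and 8 its rank was 5 of 7438, 3 of 8343 and 2 of 8155.

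**Figure D4:**
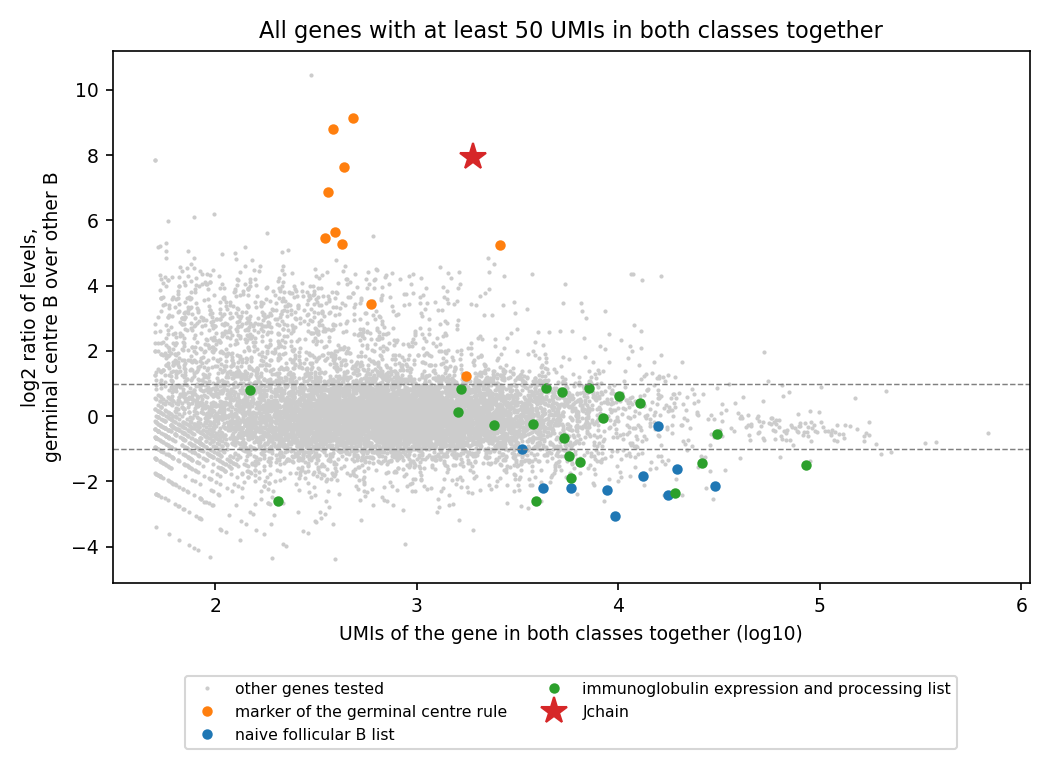
Log2 ratio of levels, germinal centre B class over other B cells (vertical), against the gene's UMIs in both classes (horizontal, log10), for 10808 genes, with dashed lines at 2-fold. Jchain (star, ratio 244) lies among the markers that defined the class (orange), above all genes of the naive follicular list (blue) and of the immunoglobulin expression and processing list (green).

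Other genes with large ratios give the setting of Jchain. H1fx had 299 UMIs in the germinal centre class and 1 in other B cells, a ratio of 1406 (250.3 to 55698). Hbb-bh1, a globin gene, was at 230.3 (39.5 to 9281) and Asns, asparagine synthetase, at 68.6 (28.1 to 218). Cobl, an actin nucleator, was at 63.5 (23.4 to 241), Parm1 at 48.5 (29.0 to 86.8) and Slpi at 46.3 (35.2 to 62.1). H1fx, Hbb-bh1, Asns, Cobl, Parm1 and Jchain itself reached the minimum of 50 UMIs only through the germinal centre class. Among the genes lowest in the class, Egr3, a transcription factor induced by antigen receptor signals, was at 0.0486 (0.0132 to 0.125) and Crb3 at 0.0495. Cyp2d22, the mineralocorticoid receptor gene Nr3c2, Gm10505 and the lipid phosphatase gene Plpp3 were at 0.0505, 0.0580, 0.0610 and 0.0638. Crb3, Nr3c2 and Gm10505 had 0 UMIs in the germinal centre class of population 2 against 18, 13 and 14 in its many more other B cells, too few to measure a direction there. The class also had 0 UMIs of Cyp2d22, Gm10505 and Plpp3 in population 5 and of Crb3, Cyp2d22 and Nr3c2 in population 8. Of Hbb-bh1 it had 1 UMI in population 2, against 0 in other B cells.

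Of 21 genes for immunoglobulin expression and processing, none was called higher and 8 were lower, against 16.0% and 9.29% of all genes tested (median log2 ratio -0.27, against 0.01 over all genes). The 8 were Zfp318, which sets IgD splicing (0.167), Pigr (0.166), Fcmr, the IgM Fc receptor (0.197), Irf4 (0.272), Cd79a (0.355), Ebf1 (0.368), Fcrla (0.377) and Pax5 (0.433). Cd79a is part of the B cell rule. Of the list's genes that act in the secretory pathway, these were under 2-fold apart: Xbp1 at 1.78, the chaperone gene Mzb1, which binds IgM, at 1.82, Hspa5 at 1.33, Hsp90b1 at 1.54 and Pdia6 at 1.81. Pdia4 lay on the other side at 0.831, and at 0.396, 0.592 and 0.862 in populations 2, 5 and 8. Without cells meeting another rule Pdia4 was at 0.631 and Hsp90b1 at 0.933. Derl3, an endoplasmic reticulum gene outside this list and a marker of the plasma rule, was called higher at 5.85 (3.88 to 8.86), and at 2.87, 8.96 and 12.9 in populations 2, 5 and 8. Prdm1, the plasma cell regulator, was at 1.74 with its interval from 1.18 to 2.52. Jchain at 244 therefore stood far above the genes of this list. Without cells meeting another rule, Mzb1 (2.95) and Pou2af1 (2.77), a B cell coactivator, were called higher. Then 4 genes stayed among those called lower (Zfp318, Pigr, Fcmr and Irf4), and Prdm1 was at 0.392 with no call. Over all genes 1235 of 10265 were higher and 1275 lower without those cells.

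Of 10 naive follicular genes, none was higher and 9 were lower, against 16.0% and 9.29% of all genes (median log2 ratio -2.17). They included Ccr7, the chemokine receptor for T zones (0.187), the transcription factor gene Klf2 (0.227) and Cd55 (0.119). Bach2 was the 1 without a call, at 0.809, but at 1.27 without cells meeting another rule and at 1.56, 1.23 and 1.15 in populations 2, 5 and 8. Without those cells 8 of the 10 were lower, against 1275 of 10265 genes, Cxcr5 being at 0.781 in place of 0.498. Of 10 memory B genes tested, 2 were higher, Nt5e (8.70) and Cd44 (3.73), and 5 were lower, among them Cd38 (0.232) and Ccr6 (0.353). The 2 higher genes are a share near the 16.0% over all genes, and 9.29% of all genes were lower. The median log2 ratio of the memory list was -0.46. Without cells meeting another rule it was -1.07, with 3 genes higher and 5 lower, against 1235 and 1275 of 10265 genes. Cd44 was then at 2.01 and Ccr6 at 0.545 with no call. Zbtb32 was called higher at 2.34 (1.19 to 4.32). Ski went from 1.26 with no call to 0.280, called lower. In populations 2, 5 and 8 Cd44 was at 1.68, 1.89 and 2.12. An 11th gene, Bmpr1a, had too few UMIs.

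Of 14 genes of the class switch machinery, 3 were higher and none lower, against 16.0% and 9.29% of all genes (median log2 ratio 0.50). They included the exonuclease gene Exo1 (6.76) and the ligase gene Lig4 (3.90). Without cells meeting another rule 5 were higher, with the uracil glycosylase gene Ung at 2.60 and Apex2 at 2.04 added. Of all genes tested without those cells, 10265, 1235 were higher and 1275 lower. Of 6 atypical B genes 4 were higher and none lower, against 16.0% and 9.29% of all genes (median log2 ratio 1.50). The 4 were Itgax (9.50), Cxcr3 (3.22), Itgb1 (3.05) and Zeb2 (2.63). Itgax and Zeb2 are also myeloid genes, and without cells meeting another rule they were at 0.640 and 0.603 and the list had 1 higher gene, Cxcr3 (6.27), and 1 lower, Fcrl5 (0.463).

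The genes whose level was most like that of Jchain were compared over 33 combinations of class and population with at least 20 cells. Among 11477 genes with at least 200 UMIs the highest Pearson r of log2(CPM + 1) included those of Nuggc (0.963) and Mef2b (0.957). Both are markers of the class, and 4 of the 33 combinations are of the germinal centre class, so that the values rest on few points, from 1 pool. The first genes outside the rule were Rassf6 (0.915), Parm1 (0.907) and the hepatic lipase gene Lipc (0.885). Of their 288, 201 and 204 UMIs, 188, 165 and 109 lay in the germinal centre class. They passed the minimum of 200 UMIs only through that class, as did Nuggc (423 of 450) and Mef2b (381 of 456). A high r with Jchain was thus favoured by the filter and is no separate support. In populations 2, 5 and 8 Rassf6 had 46.1, 86.4 and 59.4 CPM in the germinal centre class, Parm1 had 49.8, 57.0 and 66.4 CPM and Lipc had 42.4, 46.7 and 24.8 CPM. In the 29 combinations outside that class the highest values were 15.4 CPM for Rassf6, 6.98 CPM for Parm1 and 3.09 CPM for Lipc.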

How the data were processed

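The deposited counts are whole UMIs per gene and cell, which the authors obtained with Cell Ranger 8.0.1 and mm10, per the submitters' processing notes. They come from 1 pool of cells, sequenced as 4 expression and 1 hashtag libraries of the 5′ kit. The filters of the design text (500 UMIs, 200 genes, 20% mitochondrial) removed 93 of 21624 barcodes. A cell went to the hashtag with at least 3-fold more antibody capture UMIs than any other (21273 cells). Doublets were not called. Cells meeting another type's rule were left out as an alternative.

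Counts were summed by class and divided by all gene UMIs. Intervals (95%) are exact Poisson for levels, conditional binomial for ratios and Clopper-Pearson for shares. With unassigned populations no test was run and there are no p-values. Genes were called at 2-fold with an interval leaving out 1, from 50 UMIs. In simulated counts for the germinal centre comparison, 200 of 200 genes raised 4-fold and 196 of 198 lowered to 0.25 were called. These counts were Poisson draws without spread between cells or populations and without wrongly classed cells. They cover counting error only, and changes near 2-fold were not simulated.

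Members and lists were chosen with earlier results of these data known. Named were the 6 highest and 6 lowest called genes whose level lay on the same side in populations 2, 5 and 8, a level of 0 included, rule markers left out, the 3 genes most like Jchain and the first 3 of these outside the rule, and genes of 5 lists. Some genes that these rules name are not reported here. Planned analyses of isotypes, light chains, Ighd, Igkc and switched cells were not run. Python 3.11.15, numpy 2.4.6, scipy 1.17.1, pandas 2.3.3 and matplotlib 3.10.9 were used.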

Additional observations from a re-analysis of the deposited data

How the results depend on the processing

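Both Jchain ratios, for plasma cells and for the germinal centre class, stayed above 1 in every alternative run for them. The gene count, the share and the T cell level have no direction of this kind. The ratios of some single genes moved to the other side of 1 without cells meeting another rule. Among them Itgax went from 9.50 to 0.640, Zeb2 from 2.63 to 0.603 and Prdm1 from 1.74 to 0.392. Ski went from 1.26 to 0.280, Cd80 from 1.90 to 0.817 and Bach2 from 0.809 to 1.27. Without those cells the intervals of Itgax (0.168 to 1.75), Prdm1 (0.104 to 1.04) and Cd80 (0.254 to 2.04) include 1. Itgax, Prdm1 and Cd80 thus lost a direction, and those of Zeb2, Ski and Bach2 leave out 1. The count of genes apart between germinal centre and other B cells (2735) was within 1.5 times in each of 19 alternatives. It was 2271 to 2834 with 1 population left out. Its balance did change, from 1731 higher and 1004 lower. Without cells meeting another rule 1235 were higher and 1275 lower, and without Basp1, Fas and Bcl6 1253 were higher and 1656 lower. The ratio of Jchain in the germinal centre class to other B cells (244) was 428 without cells meeting another rule, 383 with at least 8 B marker UMIs and 427 without Basp1, Fas and Bcl6, and 172 (without population 5) to 338 (without population 7) with 1 population left out. The share of that class with Jchain (36.3%) was 54.4%, 47.8% and 82.6% under the first 3 of these, 20.3% and 51.3% with at least 2 or 5 germinal centre marker UMIs, 25.5% after thinning and 27.6% to 43.5% with 1 population left out. The ratio in plasma cells (9409) was 1040 with 3 of 6 markers, 33403 with 5 of 6 or with at least 5 Sdc1 UMIs, and 6452 to 25756 with 1 population left out. The level in T cells (0.793 CPM) was 0.437 without 1 cell and 0.453 to 0.885 with 1 population left out. The changed rules select other cells, by construction. The alternatives without Basp1, Fas and Bcl6, by Sdc1, by the multiplexing capture counts and without 1 T cell, and all those for the germinal centre ratio, its share and the T cell level, were chosen after seeing the data. Settings intended for isotypes, light chains, Ighd, Igkc and switched cells were not run. Depth limits levels under about 3 UMIs per class, and with 5 plasma cells their level has no measured spread.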
